A study of Mus musculus with 4 samples.

Results

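The type I keratin genes on chromosome 11 and the type II keratin genes on chromosome 15 were examined for open chromatin in sorted mouse keratinocytes, leaving out Krt6a, Krt6b, Krt16 and Krt17, the keratins induced by wounding and inflammation. Members were the protein-coding genes of the GENCODE annotation of GRCm38 (mm10) whose symbol is Krt followed by a number, which gave 49 of 21938 protein-coding genes. They comprised 8 epidermal, 5 simple, 23 hair and 13 other keratins. Peaks of the 4 libraries that shared at least 1 bp were merged into an atlas of 82641 regions, and the 54 regions that overlapped a member's body or the 5 kb on either side of it were kept. Each region was given to 1 of the members whose body or flanks it overlapped, the one with the nearest start site. A start of a gene outside that choice could lie nearer. This placed 19 with epidermal, 5 with simple, 12 with hair and 18 with other keratins, and regions are numbered along the chromosome within a gene.

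Accessibility was measured by ATAC-seq, in which the Tn5 transposase inserts adapters into open DNA. Female C57BL/6 mice of 8 to 12 weeks received cream with 5% imiquimod (Aldara) on shaved abdominal skin daily for 8 days, and EpCam+ CD49f-high cells were sorted. There were 2 WT libraries and 2 Mapk8-KO libraries. No untreated library was analysed here, so every value belongs to inflamed skin. In the methods, the epidermal deletion joins floxed Mapk8, which encodes the kinase JNK1, to a KRT14-cre transgene, so the recombinase is driven by a keratin promoter and the loss of Mapk8 cannot be told apart from the transgene. The start site of Mapk8 was called in all 4 libraries, with 96 and 73 fragments in WT and 109 and 90 in Mapk8-KO, but a promoter peak does not test the deletion.

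Keratins form obligate heteropolymers of a type I and a type II chain, and the intermediate filaments they build give epithelial cells their mechanical strength. Basal keratinocytes use Krt5 with Krt14 and Krt15, suprabasal cells replace them with Krt1 and Krt10, and simple epithelia use Krt8 with Krt18. Hair keratins build the shaft, the inner root sheath and the companion layer of the follicle.

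The libraries listed 49856 to 69927 peaks, and the median peak held 26 to 36 fragments at its summit. The WT 2 and Mapk8-KO 2 lists were the shorter ones, at 0.694 and 0.612 times the depth of WT 1, against 1.10 for Mapk8-KO 1. Of the 54 keratin regions, 43 and 28 were called in the WT libraries, against 83.8% and 65.2% of the atlas, and 41 and 29 in the Mapk8-KO libraries, against 83.2% and 59.1%. A missing call in a shallower library is not evidence of closed chromatin. The promoters of all 6 keratinocyte markers (such as Trp63 and Itga6) were called in all 4 libraries and those of the 6 leukocyte markers (such as Ptprc) in none. Promoters of 2 of 6 fibroblast, 2 of 4 endothelial, 4 of 6 melanocyte and 4 of 5 Merkel cell markers were also called in all 4, and their part in the keratin values was not tested.

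The following sequences carry the regions to which the results return. The first pair are the 200 bases before the annotated start of Krt14, the basal type I keratin (chr11:100207549-100207748), and of Krt10, the suprabasal type I keratin (chr11:99389365-99389564), both on the minus strand of GRCm38 and read in the direction of transcription. Capitals mark TATAAA.
Krt14 upstream: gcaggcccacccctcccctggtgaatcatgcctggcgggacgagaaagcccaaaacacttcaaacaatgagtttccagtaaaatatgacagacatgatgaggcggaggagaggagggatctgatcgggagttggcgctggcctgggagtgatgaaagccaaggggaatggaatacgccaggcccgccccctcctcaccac
Krt10 upstream: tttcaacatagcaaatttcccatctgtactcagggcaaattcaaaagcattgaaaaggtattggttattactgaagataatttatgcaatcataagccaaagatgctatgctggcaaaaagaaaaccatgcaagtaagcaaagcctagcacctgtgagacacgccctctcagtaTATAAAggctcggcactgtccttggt
The hexamer began 26 bases before the Krt10 start and was not found in these letters before Krt14, nor in the same stretch before Krt5, Krt1, Krt15 or Krt8. The next 4 are plus-strand windows of GRCm38, of 201 bases for Krt8 and 101 for the others, around the summit of the highest fold, for the strongest simple keratin region (Krt8 region 1, chr15:102005549-102005749) and for a region that ranked higher in WT (Krt12 region 1, chr11:99414871-99414971), one that was called in WT only (Krt78 region 1, chr15:101952821-101952921) and one that ranked higher in Mapk8-KO (Krt72 region 1, chr15:101772712-101772812). Capitals mark the AP-1 heptamer, TGACTCA or TGAGTCA, which are reverse complements of each other and were searched on both strands.
Krt8 region 1: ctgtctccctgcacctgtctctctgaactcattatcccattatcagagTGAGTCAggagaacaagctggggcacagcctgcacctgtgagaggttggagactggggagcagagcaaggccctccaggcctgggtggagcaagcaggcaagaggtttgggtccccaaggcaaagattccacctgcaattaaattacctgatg
Krt12 region 1: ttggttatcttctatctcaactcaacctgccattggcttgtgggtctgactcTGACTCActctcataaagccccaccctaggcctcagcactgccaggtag
Krt78 region 1: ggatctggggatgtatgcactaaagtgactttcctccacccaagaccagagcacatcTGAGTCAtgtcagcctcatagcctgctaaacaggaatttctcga
Krt72 region 1: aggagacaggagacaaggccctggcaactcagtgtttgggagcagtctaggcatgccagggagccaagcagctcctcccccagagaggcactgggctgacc
AP-1 is a dimer whose Jun subunits are phosphorylated by JNK kinases. Its heptamer was in the printed windows of Krt8, Krt12 and Krt78, and none was in that of Krt72. The Krt8 heptamer was not whole within the central 101 bases and was seen only in the longer window. The heptamer did not follow all regions that favoured WT. It was absent from the 201 bases around the summits of Krt88 region 2, which also ranked higher in WT, and Krt28 region 1, also called in WT only. Krt88 region 1, called in Mapk8-KO only, had none either. A link between the heptamer and genotype was not tested.

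Fewer keratin genes than protein-coding genes as a whole had a call, while their shorter windows held no fewer regions per length. A gene counted as called in all 4 libraries when each library had some region in its window, not always the same one. This held for 22 of 49 keratins, against 67.4% of all protein-coding genes (percentages of the whole annotation are given here as background, with no test over members). It held for 5 of 8 epidermal, 3 of 5 simple, 8 of 23 hair and 6 of 13 other keratins. Some counted only through a region given to a neighbour by its start site. Among simple keratins these were Krt7 and Krt19, through regions of Krt87 and Krt15. Krt87 region 1 has its summit inside the Krt7 gene. Among epidermal keratins, Krt77 counted through Krt1 region 3. Among hair keratins, Krt33b, Krt81 and Krt82 counted through regions of Krt33a, Krt88 and Krt84. By library, 32 keratins were called in WT 1 and 25 in WT 2, against 74.3% and 70.5% of all protein-coding genes, and 28 in Mapk8-KO 1 and 25 in Mapk8-KO 2, against 74.4% and 70.5%. Keratin genes had a median length of 7.22 kb, against 17.4 kb for all protein-coding genes, and regions called in all 4 libraries numbered 2.69 per 100 kb of keratin windows, against 2.30. Within 2 kb of the gene's own start sites, 7 of 49 keratins were called in all 4 libraries, against 55.4% of all protein-coding genes. These were Krt14, Krt15 and Krt10 among epidermal keratins, Krt8 among simple keratins, Krt33a among hair keratins, and Krt12 and Krt80 among the others. Krt10 counted only through a start annotated inside the gene, since its 5′ start was called in 1 library. Krt14 counted through different regions by library. Its start-site region was not called in WT 2, and the region 793 bp upstream was not called in Mapk8-KO 2. By library, the WT lists held such a region for 12 and 10 keratins, against 62.2% and 58.1% of all protein-coding genes, and the Mapk8-KO lists for 11 and 8, against 62.2% and 58.6%.

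**Figure D1:**
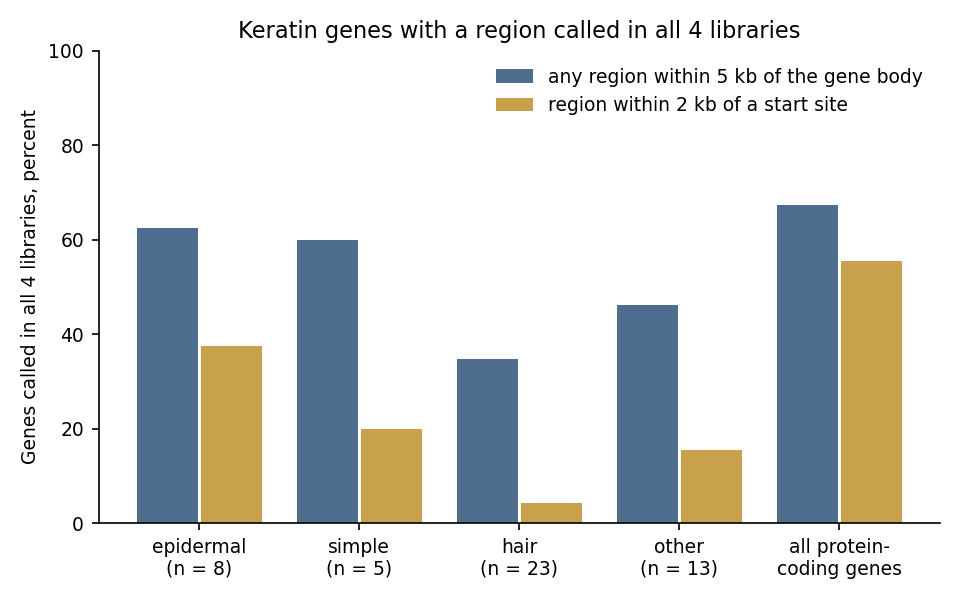
Bars show the percentage of genes (y axis) in each keratin class and among all protein-coding genes (x axis) with a region called in all 4 libraries, within 5 kb of the gene body or within 2 kb of a start site. Hair keratins had the lowest shares, 34.8% and 4.35%, against 67.4% and 55.4% of all protein-coding genes.

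No region was called in any library for 15 members. These included the suprabasal epidermal Krt2 and Krt9 of the footpad, the simple keratin Krt18, the inner root sheath keratins Krt27, Krt71 and Krt73, the companion layer keratin Krt75 and the hair shaft keratins Krt31, Krt34, Krt40 and Krt83. The remaining members without a call were Krt4 and Krt76 of the oral mucosa, Krt24 and Krt90. Krt8 and Krt18 are partners in simple epithelia and neighbours on chromosome 15, yet only Krt8 had a region. Whether weaker signal lies at the uncalled genes cannot be seen in peak lists.

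Epidermal keratins had many regions that few libraries shared, and those shared by all were low in rank. The windows of the 8 epidermal keratins held 15.0 regions per 100 kb, against 7.11 for simple, 3.67 for hair, 7.39 for other keratins and 4.45 for all protein-coding genes. Counting only regions called in all 4 libraries, the values were 3.16 for epidermal, 3.05 for simple, 1.98 for hair, 4.11 for other keratins and 2.30 for all protein-coding genes. These densities count a region in every class whose windows hold it. Thus 3 regions entered the simple value, although only 1 of them was given to a simple keratin. Of the 19 epidermal regions, 4 were called in all 4 libraries, against 6 of 12 hair regions and 48.6% of the atlas. Fold is the summit pileup of fragments over the local background, as given by the peak caller, and it was ranked in each library among the 40159 regions called in all 4. The median percentile of fold over epidermal regions was 10.4 and 10.6 in the WT libraries and 13.8 and 14.5 in the Mapk8-KO libraries, or 12.3 ± 2.14 (SD, n = 4 libraries). Hair regions stood at 53.5, 51.2, 52.0 and 48.6, or 51.3 ± 2.03, and the lowest hair value lay above the highest epidermal value. The single simple region called in all 4, at Krt8, had 98.8, 82.3, 94.7 and 86.2, or 90.5 ± 7.58.

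The order of epidermal and hair keratins turned with the measure. Ranked by the number of fragments at the summit alone, a measure added after the data were seen, epidermal regions had a median percentile of 46.3 ± 8.88 (n = 4 libraries) and hair regions 31.9 ± 7.69. The local background that divides the pileup moved with this difference. Relative to the lowest background of its library, the median background of regions called in all 4 was 3.17 ± 0.443 at epidermal, 1.05 ± 0.0433 at hair, 1.26 ± 0.171 at Krt8 and 1.88 ± 0.136 over all such regions. The highest epidermal ratio was at the Krt1 start in the WT libraries, at 5.93 and 4.33, and at Krt14 in the Mapk8-KO libraries, at 4.72 and 4.16. This ratio, too, was added after the data were seen.

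**Figure D2:**
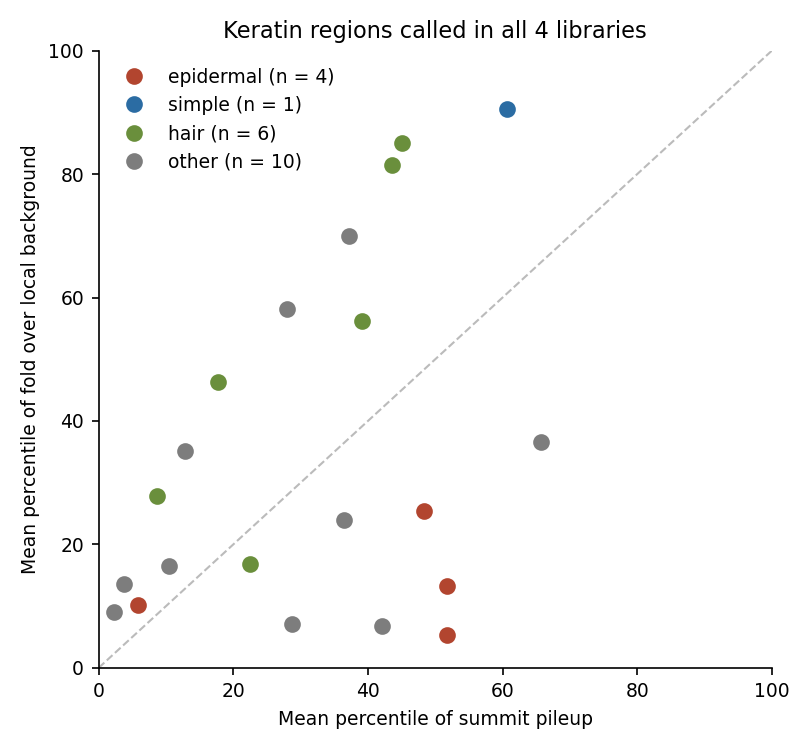
Each point is 1 of the 21 keratin regions called in all 4 libraries, with the mean percentile of its summit pileup (x axis) against that of its fold over local background (y axis), coloured by class, and the dashed line marks equal ranks. All 4 epidermal regions ranked at or below 25.4 by fold, while Krt8 ranked at 90.5.

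**Figure D3:**
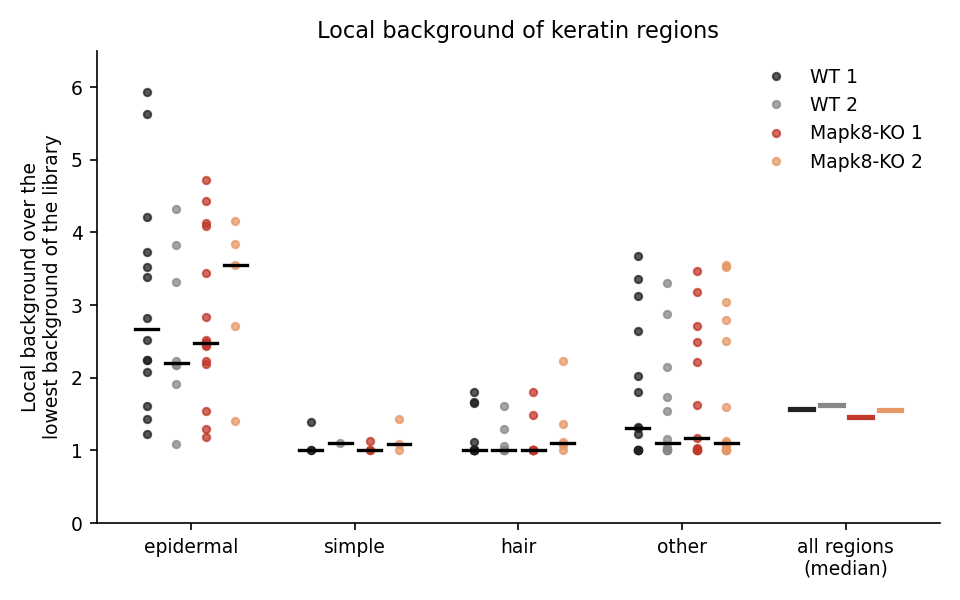
Points are keratin regions called in a library, grouped by class (x axis), with the local background divided by the lowest background of that library (y axis), black bars are medians, and coloured bars on the right are medians over all regions of the library. Epidermal medians lay between 2.21 and 3.56, above the medians of all regions in every library.

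Among basal keratins, the start site of Krt14 stood apart. Krt14 region 3 (chr11:100207510-100207834, over the start site and the first exon) held 36 fragments in WT 1, was not called in WT 2, and held 199 in Mapk8-KO 1 and 109 in Mapk8-KO 2. Scaled to the depth of WT 1, the Mapk8-KO values were 181 and 178, or 5.02 and 4.95 times that of WT 1. The Mapk8-KO libraries were alike and both stood above WT 1, whose fold of 4.35 lay at percentile 12.5 of its library, against folds of 15.5 and 14.6 at percentiles 96.3 and 95.9.

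The summit lay 116 bases upstream of the start in WT 1 and 103 and 102 bases upstream in Mapk8-KO, within the Krt14 stretch printed above, and the peaks were 309, 309 and 299 bp wide. The 95% exact Poisson interval was 25.2 to 49.8 fragments in WT 1, and the Mapk8-KO libraries had intervals of 172 to 229 and 89.5 to 131, which covers counting error only. In WT 2, about 11 fragments would have reached the weakest p it listed at the background of the neighbouring region. The region could not enter the 4-library fit, and a fit without WT 2, which assumes that the lone WT library varies like the others, gave a log2 difference of 2.33 (SE 0.248) and an adjusted p of 1.19e-16 by limma, where 0.0226% of 44202 regions passed. Both Mapk8-KO libraries come from the genotype that carries KRT14-cre, so the deletion and the transgene cannot be told apart at this locus. Fragments from the promoter of the transgene, if any were mapped here, would count in these pileups, so the values need not measure accessibility of the endogenous gene alone, and this was not tested.

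The region 793 bp upstream, Krt14 region 4, did not share this pattern. It held 38 fragments in WT 1, 17 in WT 2 and 33 in Mapk8-KO 1, and was not called in Mapk8-KO 2. At Krt5, the type II partner of Krt14, the start-site region held 24 fragments in WT 1 and 29 in Mapk8-KO 1 and was not called in the shallower libraries. Krt5 region 4, 758 bp upstream, held 15 in WT 2 and 30 in Mapk8-KO 1 only. Krt15, a basal and follicle stem cell keratin, had a region called in all 4 libraries, with its edge 78 bp from the start. The peaks of WT 1 and Mapk8-KO 1 began at 100136006 and 100136011, those of WT 2 and Mapk8-KO 2 at 100136602 and 100136598. The latter therefore lay farther from the start and did not hold the Mapk8-KO 1 summit at 100136229. The summits held 18 and 13 fragments in WT and 26 and 14 in Mapk8-KO. Scaled to WT 1 these were 18.0, 18.7, 23.6 and 22.9, and the limma difference had an adjusted p of 0.740.

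**Figure D4:**
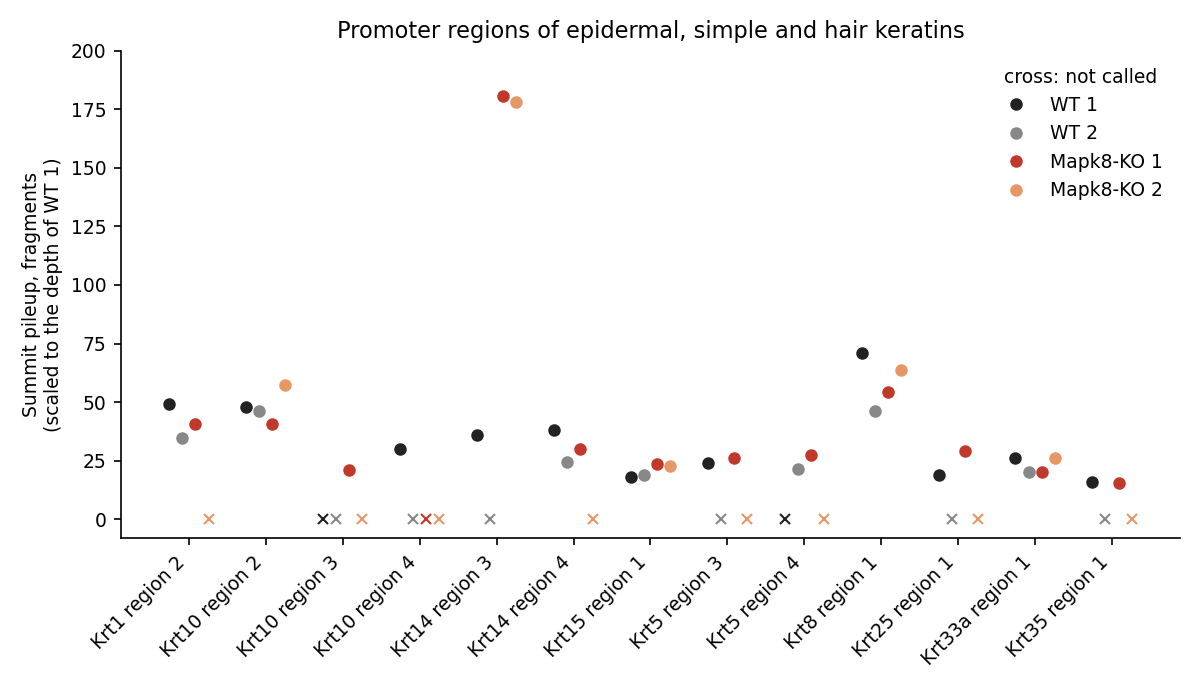
Points are summit pileups in fragments scaled to the depth of WT 1 (y axis) for each region within 2 kb of a start site of an epidermal, simple or hair keratin (x axis), coloured by library, and crosses mark libraries without a call, whose value is unknown. Krt14 region 3 reached 181 and 178 in Mapk8-KO, while all other values lay at or below 71.

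Among suprabasal keratins, Krt10 region 2 lay 415 bp beyond the 3′ end of the gene, 4525 bp from its 5′ start and 1258 bp from a start annotated inside the gene, and held 48 and 32 fragments in WT and 45 and 35 in Mapk8-KO. The region over the 5′ start of Krt10 was called in WT 1 alone, with 30 fragments, and Krt10 region 3 in Mapk8-KO 1 alone, with 23. The start of Krt1, the type II partner of Krt10, held 49 and 24 fragments in WT and 45 in Mapk8-KO 1, without a call in Mapk8-KO 2. Krt1 region 1, over the 3′ end of the gene, and region 3, 4588 bp upstream of its start, were called in all libraries. Region 1 held 55, 28, 65 and 30 fragments and region 3 held 59, 31, 42 and 39, in the order WT 1, WT 2, Mapk8-KO 1 and Mapk8-KO 2. The genotypes overlapped in each of these. Krt77, a further suprabasal type II keratin, had a region in 1 library each at 2 places.

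Among simple keratins, Krt8 region 1 had the highest rank of fold of the 21 keratin regions called in all 4 libraries. It lay 948 bp upstream of the Krt8 start, in an intron of the predicted gene Gm36026, and held 71 and 32 fragments in WT and 60 and 39 in Mapk8-KO. Scaled to WT 1 the values were 71.0, 46.1, 54.4 and 63.7, and the genotypes overlapped. Krt19 had a region in WT 1 and another in Mapk8-KO 1, and Krt20, used by gut epithelium and Merkel cells, one in Mapk8-KO 2 with 9 fragments. Krt7 region 1, in an intron, held 21 fragments in WT 1 and, among Mapk8-KO libraries, 22 and 15. None of these 3 genes had a region within 2 kb of its start.

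Hair keratin regions lay mostly away from start sites. The 3 with the highest rank of fold were Krt32 region 1 (85.0), Krt33a region 2 (81.6) and Krt84 region 1 (56.2), all at genes of the hair shaft. Krt32 region 1 held 46 and 26 fragments in WT and 52 and 32 in Mapk8-KO, 2500 bp from the start. Krt33a region 2 held 43, 27, 49 and 32 and Krt84 region 1 held 43, 28, 44 and 26, in the same order of libraries. Regions within 2 kb of a start were found at Krt33a (26, 14, 22 and 16 fragments), at Krt25 of the inner root sheath (19 in WT 1 and 32 in Mapk8-KO 1) and at Krt35 of the shaft (16 and 17 in the same libraries).

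Of the other keratins, Krt80, a type II keratin of many epithelia, had 6 regions, of which 4 were called in all libraries. The highest ranks of fold among other keratins were those of Krt12 region 1 (70.0), Krt88 region 2 (58.2) and Krt80 region 6 (36.7), the last with 67, 40, 71 and 38 fragments. The start-site region of Krt80, region 5, held 41, 28, 45 and 32 fragments. Krt79, expressed in the upper follicle, had both of its regions in Mapk8-KO 2 alone, with 14 fragments in each. Krt42 region 1 lay over the start of the left-out Krt17, and Krt222 region 1 lay 84 bp from the start of Smarce1, so neither can be assigned to the keratin alone. Likewise, Krt12 regions 1 and 2 lay 1998 and 403 bp from a start of A830036E02Rik, nearer than to that of Krt12, at 7014 and 1422 bp. The 4 left-out stress keratins had 7 regions, 5 of them called in all 4 libraries, and 1 was this shared region. Krt16 held 91 and 55 fragments in WT and 94 and 44 in Mapk8-KO.

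Between genotypes, no keratin region called in all 4 libraries passed the test. With limma on log2 pileup, 0 of 21 keratin regions reached an adjusted p under 0.05, against 0.618% of 40159 regions (0.505% higher in WT and 0.112% higher in Mapk8-KO), and 2 had an unadjusted p under 0.05, against 11.3%. The higher one in Mapk8-KO was Krt72 region 1, near an inner root sheath keratin, with 22 and 17 fragments in WT and 37 and 28 in Mapk8-KO, a log2 difference of 0.76 (SE 0.292, unadjusted p = 0.0102, adjusted p = 0.254 by limma). The lower one was Krt12 region 1, near the corneal keratin, with 46 and 35 fragments in WT and 36 and 21 in Mapk8-KO, a log2 difference of -0.53 (SE 0.262, unadjusted p = 0.0461, adjusted p = 0.435 by limma). For a single region, 2 libraries against 2 allow an exact two-sided permutation p no lower than 0.333, so no region can pass by that test. How many mice went into a library is not given in the sources used here, so the p-values measure the spread between these libraries.

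**Figure D5:**
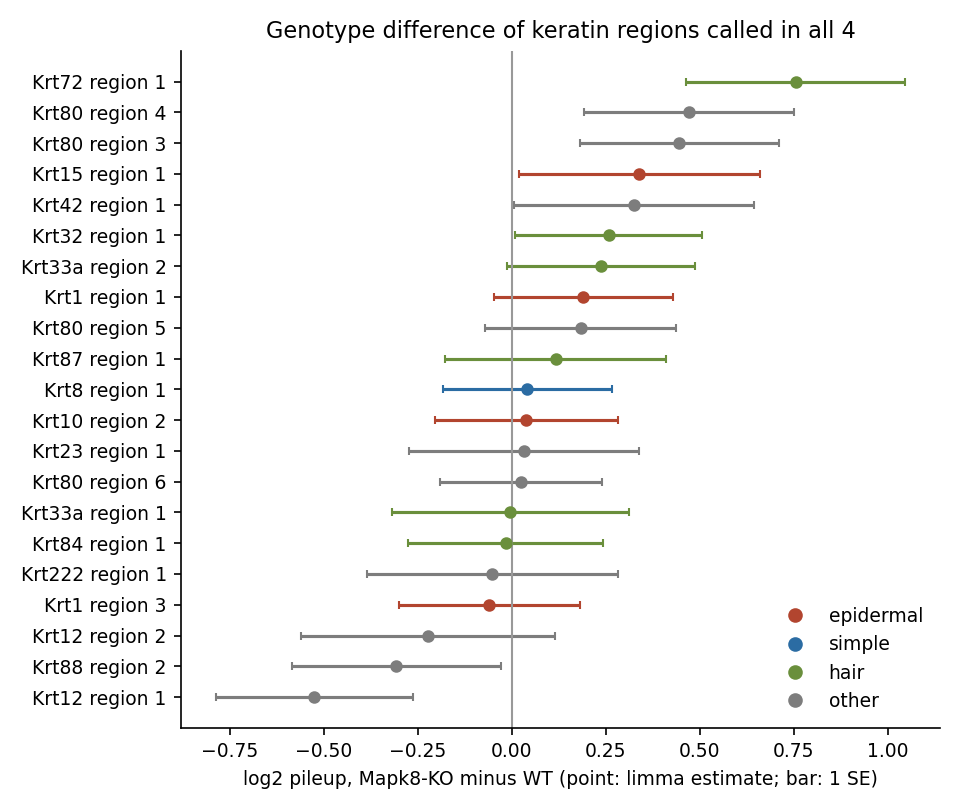
Points are limma estimates of the log2 difference in summit pileup, Mapk8-KO minus WT (x axis), with bars of 1 SE, for the 21 keratin regions called in all 4 libraries (y axis), coloured by class. They run from -0.53 at Krt12 region 1 to 0.76 at Krt72 region 1, and none passed the adjusted threshold.

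The scaled pileups of the genotypes did not overlap in 9 of the 21 regions, 7 higher in Mapk8-KO and 2 higher in WT, against 24.6% and 16.9% of all regions in those directions. The 7 were Krt72 region 1, Krt80 regions 3 and 4, Krt15 region 1, Krt32 region 1, Krt33a region 2 and Krt87 region 1. Of these, 4 were given to hair keratins, among them Krt87 region 1, whose summit lies inside the Krt7 gene. The median log2 difference was 0.04 over the 21 regions, 0.11 over the 4 epidermal and 0.18 over the 6 hair regions, against 0.05 over all regions.

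By calls alone, 2 keratin regions were found in both WT libraries and in neither Mapk8-KO library, against 2.17% of the atlas, and 1 in the reverse direction, against 1.65%. Those in WT were Krt28 region 1, in an intron of an inner root sheath keratin gene, with 15 and 10 fragments, and Krt78 region 1, 1285 bp from the start, with 19 and 19. The one in Mapk8-KO was Krt88 region 1, with 19 and 13. A gap of at least 10 percentile points of fold between genotypes was found for Krt12 region 1 and Krt88 region 2 in favour of WT, against 4.65% of regions, and for Krt72 region 1 in favour of Mapk8-KO, against 4.07%. Krt88 region 2 held 41 and 25 fragments in WT and 31 and 21 in Mapk8-KO, with an adjusted p of 0.727 by limma.

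Sequence motifs were counted in the regions and set beside the whole atlas. In windows of 100 bases on either side of the summit, the AP-1 heptamer was present in 13 of 54 keratin regions, or 24.1%, against 23.7% of the 82641 atlas regions. It was found in 3 of 19 epidermal, 2 of 5 simple, 2 of 12 hair and 6 of 18 other regions. The AP-2 motif GCCNNNGGC was in 6 keratin regions (11.1%, against 10.2%), the KLF motif GGGNGTGG in 4 (7.41%, against 13.3%), the TCF/LEF motif CTTTGAT or CTTTGTT in 3 (5.56%, against 6.54%) and the p63 motif in 2 (3.70%, against 8.78%), each searched on both strands and free to overlap another. Among the 36 members with an entry in the RefSeq promoter table (GRCm38.p6), TATAAA lay in the 50 bases before the start in 15, including 11 of 17 hair keratins, against 2.63% of 32851 promoters. This hexamer was looked at after the other motifs, on the strand of the gene. The linkers and bundlers of keratin filaments (such as Plec and Dsp) and the regulators of keratin genes (such as Klf4 and Tfap2a) had a promoter called in all 4 libraries in 8 of 8 genes each, against 55.4% of all protein-coding genes. By the same count, 5 of 6 regulators of the hair matrix and sheath, among them Hoxc13 and Foxn1, were called.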

How the data were processed

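Peak lists of 4 ATAC-seq libraries were used, 2 WT and 2 Mapk8-KO, grouped by their labels. The submitters' processing notes name STAR 2.5.3 and Trimmomatic 0.36, without saying for which assay. According to the methods, however, the authors mapped paired reads to mm10 with Bowtie2 and called peaks with MACS2 at q 0.05. The highest q in the deposited lists was 0.00928 to 0.0097 by library, so no peak near that limit was listed. The deposited columns hold the fold of pileup over local background (a ratio), the −log10 p and −log10 q values, a score that was not used, and the summit position. From the deposited fold and −log10 p, the whole summit pileup and the background were recovered, within 0.05 of a whole number for at least 99.996% of peaks. The lists hold no reads per region, so the pileup at the summit stood in, and WT 1, WT 2, Mapk8-KO 1 and Mapk8-KO 2 were scaled by their median pileup over shared regions. The highest peak stood for a region.

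Python 3.11.15 scripts and limma 3.58.1 in R were used, with a variance trend, Benjamini-Hochberg adjustment over all regions called in all 4 libraries and a threshold of 0.05. The recovery and the limma step were tested on simulated data. Members and lists were chosen with earlier results of these data known. Values were given in full for regions within 2 kb of key keratin start sites, for the 3 regions of each class ranked highest, and for regions specific to a genotype, past the rank gap or past the limma threshold; members without a region were named. Alternatives covered a stricter q, lists of equal length, other windows, 50% cover, other ranks and gaps, other limma settings and each library left out.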

Additional observations from a re-analysis of the deposited data

How the results depend on the processing

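Of 180 alternatives over 17 results, 124 stayed within 1.5 times the count or within the spread between libraries and no called value changed sign; the median log2 difference over all keratin regions, 0.04, was -0.01 after centring on the median of ratios, within its spread. With the gene body alone, 1 epidermal, 1 simple and 2 hair keratins, 6 of all 49, were called in all 4 libraries. The share of all protein-coding genes was not counted for this window. The median percentiles of fold were 5.37, 46.4 and 56.4, and no region passed the rank gap (0 in either direction). The epidermal value was that of Krt1 region 1, and the simple value that of Krt87 region 1, inside the Krt7 gene. Krt8 region 1 lies outside its gene and dropped out. With 10 kb on each side, the epidermal median was 16.7 and 2 regions passed the gap towards Mapk8-KO. With lists of equal length, the epidermal median was 9.26, 0 regions were specific to Mapk8-KO, 0 passed the gap towards it, and 17 regions of the whole atlas were called higher in it. With one region per gene, the medians were 16.7 for epidermal and 56.2 for hair. By −log10 p they were 23.7, 74.5 and 37.3 for epidermal, simple and hair, with 1 region past the gap towards WT. By pileup, added after the data were seen, they were 46.3, 60.7 and 31.9, so only this measure put epidermal above hair. A gap of 20 points left 0 in either direction.

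No limma setting with all 4 libraries called a keratin region. Over all regions, 203 were higher in WT and 45 in Mapk8-KO, against 0 and 0 without a trend, 26 and 3 after quantile normalization, and 86 and 7 after centring on the median of ratios, added after the data were seen. With the replicate number as a block, 284 and 102 were called and 0 of 21 keratin regions; the differences between replicates 1 and 2 correlated at 0.0392 between genotypes, so the numbers do not show a pairing.

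Leaving out each library in turn gave 5 to 6 epidermal, 3 to 3 simple and 8 to 8 hair keratins, 22 to 23 in all. The median percentiles ranged from 7.59 to 18.3, 60.2 to 93.2 and 51.3 to 58.0. Regions specific to WT numbered 2 to 9 and to Mapk8-KO 1 to 6, and those past the gap 2 to 5 and 1 to 3. The median log2 differences ranged from 0.02 to 0.17 over all, 0.01 to 0.27 over epidermal and 0.12 to 0.24 over hair regions. limma calls ranged from 0 to 1 keratin region, 2 to 1148 regions higher in WT and 1 to 442 higher in Mapk8-KO. The 1 keratin call, Krt14 region 3, came without WT 2, and the simple median of 60.2 also came without that library, where more than 1 simple region was ranked. The 1148 and 442 calls came without Mapk8-KO 1. WT 2 and Mapk8-KO 2, whose median pileup was lower, listed fewer peaks, and the part of depth in the calls was not tested.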
